A study of Mus musculus with 7 samples.

Results

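The genes described are 10 components of antigen presentation by class I molecules of the major histocompatibility complex (MHC), chosen by symbol: H2-K1, H2-D1, B2m, Tap1, Tap2, Tapbp, Psmb8, Psmb9, Psmb10 and Nlrc5. All 10 were found among the 22680 genes of the expression table. Blood-forming cells were sorted from the fetal liver of C57BL/6 mice 13.5 days after conception (d.p.c.), and their RNA was sequenced in 3 Uhrf1-/- LSK libraries, 3 wild-type LSK libraries and 1 wild-type LK library. The LSK fraction (lineage-negative, Sca-1+, c-Kit+) contains the hematopoietic stem cells, and the LK fraction (c-Kit+, Sca-1-) contains more mature progenitors. The sources used here give neither the way the Uhrf1 deletion was made nor whether animals were pooled. Uhrf1 encodes a reader of hemimethylated DNA that is needed to copy DNA methylation at replication.

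Class I molecules show short peptides from inside the cell to cytotoxic T cells and natural killer cells. Peptides are cut by the proteasome, in which Psmb8, Psmb9 and Psmb10 can take the places of the constitutive catalytic subunits Psmb5, Psmb6 and Psmb7 to form the immunoproteasome. The Tap1 and Tap2 transporter carries peptides into the endoplasmic reticulum, where tapasin, the product of Tapbp, helps load them onto a heavy chain (H2-K1 or H2-D1) paired with the light chain B2m. Interferons raise most of these genes, and NLRC5 acts with RFX, CREB/ATF and NF-Y factors on a row of boxes in class I promoters.

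Promoter stretches are shown for the heavy chains, their light chain and the divergent pair Tap1 and Psmb9, because these are the promoters that NLRC5 and interferon factors are known to use. Windows came from RefSeq (build GRCm38.p6) and matched 8 of the 10 genes; Tap2 and Nlrc5 had no entry. For H2-K1 (the more upstream of the starts given in these windows), H2-D1 and B2m the stretches were aligned on the X2 core, and each has 105 bases. They lie at chr17:34000359-34000463 (minus strand) for H2-K1, at chr17:35262918-35263022 (plus strand) for H2-D1 and at chr2:122147534-122147638 (plus strand) for B2m. The RefSeq span of the H2-K1 gene reaches further upstream, to 34000619, so its stretch lies inside that span. Capitals mark, from the left, a kappaB element of 11 letters (in H2-K1 and H2-D1, searched exactly as shown), the core of interferon regulatory factor sites (AANNGAAA), the X2 core (TGACG) and the Y core (ATTGG), each searched on both strands.
H2-K1: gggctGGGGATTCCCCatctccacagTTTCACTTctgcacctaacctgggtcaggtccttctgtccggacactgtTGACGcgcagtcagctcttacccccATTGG
H2-D1: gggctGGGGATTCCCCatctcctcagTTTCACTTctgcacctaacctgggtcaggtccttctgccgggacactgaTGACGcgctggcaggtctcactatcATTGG
B2m: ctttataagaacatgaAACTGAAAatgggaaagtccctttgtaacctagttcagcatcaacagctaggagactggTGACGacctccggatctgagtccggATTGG

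H2-K1 and H2-D1 were identical at 94 of the 105 positions (89.5%), and H2-K1 and B2m at 44 (41.9%). In all 3 genes the Y core began 25 bases after the X2 core on the same strand, an arrangement present in the 250 bases before the start of 25 of 27025 genes (0.0925%). TGACG alone was present in 17.9% of these windows, ATTGG in 34.5% and AANNGAAA in 21.6%. The kappaB letters were found in 6 genes (0.0222%), among them H2-K1 and H2-D1. All motif letters were chosen after the sequences had been read, so these shares are descriptions only. Apart from the spaced pair, which is built from the X2 and Y cores, the marked motifs did not overlap one another.

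Tap1 and Psmb9 are transcribed away from each other, with 225 bases between their RefSeq starts (chr17:34187331-34187555, plus strand, shown from the Psmb9 side to the Tap1 side). Capitals mark the X2 core and the Y core, here on the strand of Psmb9 as CCAAT. Psmb8, which lies next to Tap1, had a match to the interferon-gamma activated site, GAS (TTCNNNGAA, in 7.18% of windows) in the stretch at chr17:34198078-34198126 (plus strand), shown with the match in capitals. The window of Tapbp held only the Y core among these motifs, and that of Psmb10 held none of them.
Tap1-Psmb9: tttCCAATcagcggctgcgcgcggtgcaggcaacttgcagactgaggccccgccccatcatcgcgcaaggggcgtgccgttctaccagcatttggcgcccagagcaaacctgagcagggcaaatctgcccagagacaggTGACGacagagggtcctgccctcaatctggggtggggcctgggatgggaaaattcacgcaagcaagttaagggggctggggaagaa
Psmb8: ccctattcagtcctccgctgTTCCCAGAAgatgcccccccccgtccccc

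**Figure D1:**
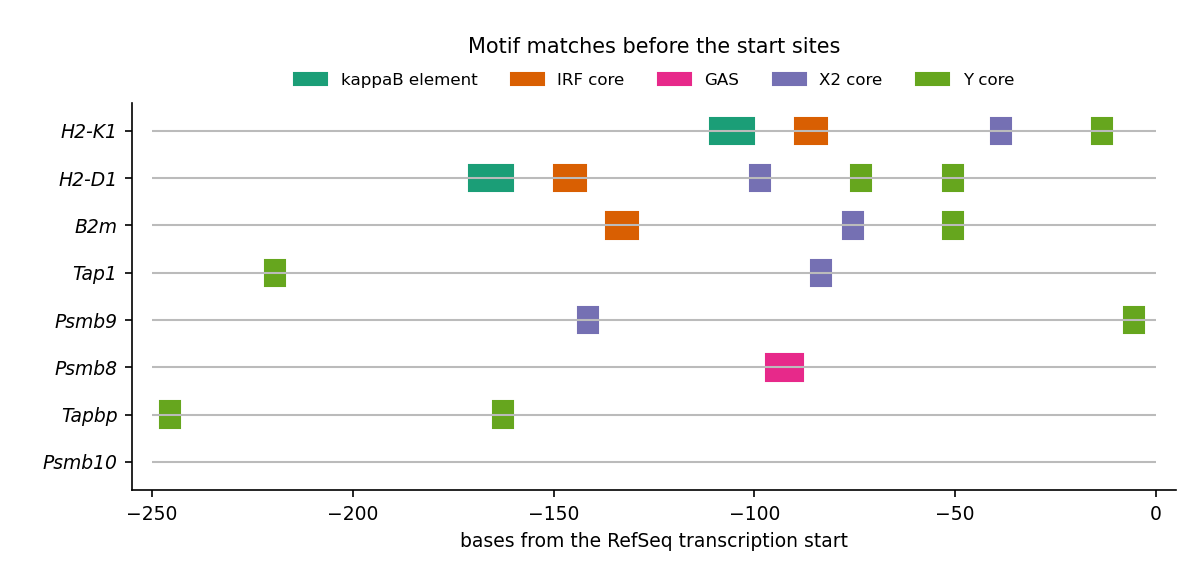
Motif matches in the 250 bases before the RefSeq start of 8 genes, by distance from the start in bases. H2-K1, H2-D1 and B2m share the order of an interferon regulatory factor core, an X2 core and a Y core, and Psmb10 has no match.

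The same windows held 14 CpG dinucleotides in H2-D1 and Tap1, 12 in Psmb9, 10 in Tapbp and Psmb8, 9 in H2-K1, 8 in B2m and 3 in Psmb10, against a median of 6 over all genes. Among all genes these counts stood between percentile 29.6 (Psmb10) and percentile 70.4 (H2-D1 and Tap1). DNA methylation itself was not measured here.

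The libraries held scaled counts summing to between 15557000 (wild-type LSK replicate 2) and 21017400 (LK), and the step that 1 read is worth ranged from 0.716 to 1.24 of these units. Uhrf1 stood at 8.78 to 18.6 FPKM in Uhrf1-/- LSK libraries, at 63.0 to 113 FPKM in wild-type LSK libraries and at 116 FPKM in LK cells. The difference between the LSK genotypes passed (limma adjusted p = 0.018). FPKM is a fragment count scaled by transcript length and by the size of the library. Ly6a, which encodes Sca-1, stood at 36.9 to 96.4 FPKM in Uhrf1-/- LSK, 26.4 to 56.8 FPKM in wild-type LSK and 0.321 FPKM in LK cells. Of the other genes read to describe the LSK fraction, 3 were below every wild-type LSK library in Uhrf1-/- cells (6.16% of all genes tested), and Cd48 overlapped. Flt3, a receptor of multipotent progenitors, had 29.1, 28.1 and 10.6 FPKM in the Uhrf1-/- and 101.9, 69.5 and 49.8 FPKM in the wild-type LSK replicates (log2 fold change -1.73, limma adjusted p = 0.175, blocked adjusted p = 0.00044). Cd34 and Kit, the other 2 below, had log2 fold changes of -0.75 and -0.55 (limma adjusted p = 0.876 and 0.942). The part of this difference in the class I values was not tested. In wild-type LSK replicate 2, 4.75% of the deposited count values fell on ribosomal protein genes, against 10.6% to 15.7% in the other 6 libraries.

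Both heavy chain genes were higher in every Uhrf1-/- LSK library than in any wild-type LSK library, but neither passed correction over all genes. H2-K1 (Entrez gene 14972; chromosome 17, 33996012 to 34000619, GRCm38) encodes the classical heavy chain K. It had 358, 332 and 223 FPKM in Uhrf1-/- replicates 1, 2 and 3 and 181, 162 and 150.2 FPKM in the wild-type LSK replicates. Its lowest Uhrf1-/- value was replicate 3. The log2 fold change on the log2(FPKM + 1) scale was 0.86 (SE 0.32, 95% interval 0.15 to 1.57), with an unadjusted limma p of 0.022 and an adjusted p of 0.718, or 0.251 with the replicate number as a block.

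H2-D1 (Entrez gene 14964; chromosome 17, 35263094 to 35267497), the other classical heavy chain of this strain, had 419.7, 374 and 287 FPKM in the Uhrf1-/- and 234, 193 and 192 FPKM in the wild-type LSK replicates. The groups did not overlap, and replicate 3 was again the lowest of its genotype. Its log2 fold change was 0.79 (SE 0.32), with an unadjusted limma p of 0.033, an adjusted p of 0.799 and a blocked adjusted p of 0.346. The ratio of H2-K1 to H2-D1 was 0.777 to 0.886 in Uhrf1-/- and 0.772 to 0.839 in wild-type LSK cells.

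These genes belong to a family whose reads can be hard to place. Of the 50-base words of the longest H2-K1 transcript in GENCODE, 8.11% also occurred in transcripts of other genes, and of H2-D1 14.3%. H2-L, a heavy chain gene that the C57BL/6 haplotype is known to lack, was listed at 0, 13.4 and 0.591 FPKM in Uhrf1-/- and at 0, 21.6 and 18.6 FPKM in wild-type LSK libraries. H2-D1 and H2-L together still stood at 287 to 419.7 FPKM in Uhrf1-/- against 210.5 to 234 FPKM in wild-type LSK libraries.

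The values of B2m overlapped between the genotypes, unlike those of the heavy chains. B2m (Entrez gene 12010; chromosome 2, 122147687 to 122153082), the invariant light chain, had 683, 839.7 and 229 FPKM in the Uhrf1-/- and 470.1, 615 and 496 FPKM in the wild-type LSK replicates. Uhrf1-/- replicates 1 and 2 lay above all wild-type libraries and replicate 3 below them all. The log2 fold change was -0.04 (SE 0.50, 95% interval -1.14 to 1.06; limma adjusted p = 0.997), and without Uhrf1-/- replicate 3 it was 0.53 (adjusted p = 0.880). The summed heavy chains stood at 1.14, 0.840 and 2.23 times the level of B2m in Uhrf1-/- replicates 1, 2 and 3 and at 0.883, 0.578 and 0.690 times in the wild-type LSK replicates.

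Of the transporter and its tapasin partner, only Tap1 had groups that did not overlap. Tap1 (Entrez gene 21354; chromosome 17, 34187556 to 34197225) had 27.9, 31.3 and 29.1 FPKM in the Uhrf1-/- and 16.9, 18.5 and 16.7 FPKM in the wild-type LSK replicates. Its spread was small in both genotypes (29.4 ± 1.74 and 17.4 ± 0.994 FPKM, SD, n = 3 each), and the ratio within pairs was 1.65, 1.69 and 1.74. The log2 fold change was 0.73 (SE 0.24, 95% interval 0.21 to 1.25), with an unadjusted limma p of 0.011, an adjusted p of 0.507 and a blocked adjusted p of 0.149.

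Tap2 (Entrez gene 21355; chromosome 17, 34204479 to 34216321), which forms a dimer with Tap1, had 34.2, 28.8 and 30.3 FPKM in the Uhrf1-/- and 22.1, 30.9 and 25.3 FPKM in the wild-type LSK replicates. The groups overlapped, and the log2 fold change was 0.25 (SE 0.25, limma adjusted p = 0.942). Tap1 relative to Tap2 was 0.816, 1.09 and 0.958 in Uhrf1-/- and 0.765, 0.598 and 0.659 in wild-type LSK cells. Tapbp (Entrez gene 21356; chromosome 17, 33919478 to 33929290) had 44.6, 49.8 and 35.7 FPKM in the Uhrf1-/- and 31.0, 58.9 and 40.0 FPKM in the wild-type LSK replicates. The wild-type values enclosed all Uhrf1-/- values, with a log2 fold change of 0.04 (SE 0.30, 95% interval -0.62 to 0.69; limma adjusted p = 0.995).

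**Figure D2:**
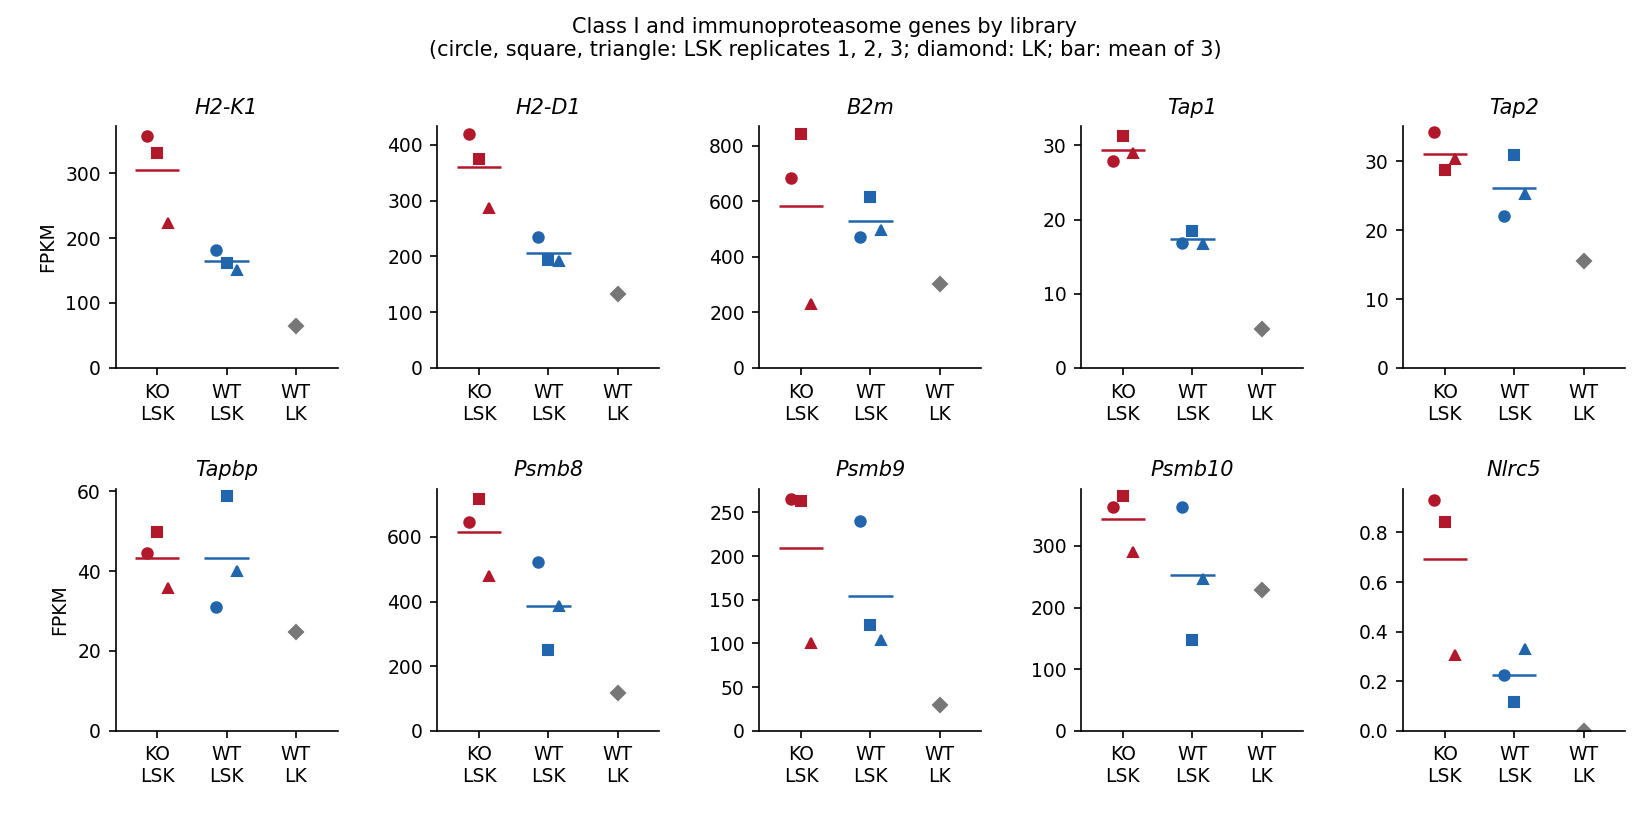
FPKM of the 10 genes in each library, from 0, with Uhrf1-/- (KO) LSK, wild-type (WT) LSK and wild-type LK libraries side by side and bars at the mean of 3. H2-K1, H2-D1 and Tap1 lie higher in all 3 Uhrf1-/- than in all 3 wild-type LSK libraries, B2m is scattered in Uhrf1-/- cells, and the LK library is the lowest or near the lowest for most genes.

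The immunoproteasome subunits had higher means in Uhrf1-/- LSK cells, but their groups overlapped and none passed. Psmb8 (Entrez gene 16913; chromosome 17, 34198195 to 34201454), the immunoproteasome form of the chymotrypsin-like subunit, had 645, 719 and 479.6 FPKM in the Uhrf1-/- and 522, 249 and 386 FPKM in the wild-type LSK replicates. Uhrf1-/- replicate 3 fell within the wild-type range, and wild-type replicate 2 was the lowest. The log2 fold change was 0.71 (SE 0.40, limma adjusted p = 0.942) and 0.43 without wild-type replicate 2.

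Psmb9 (Entrez gene 16912; chromosome 17, 34182030 to 34187330), which replaces Psmb6, had 265, 263 and 100.6 FPKM in the Uhrf1-/- and 239.9, 121 and 103 FPKM in the wild-type LSK replicates. Replicate 3 was the lowest of both genotypes. Its log2 fold change was 0.41 (SE 0.46, limma adjusted p = 0.943). It was 0.87 without Uhrf1-/- replicate 3 and 0.77 without wild-type replicate 1, but 0.17 without Uhrf1-/- replicate 1, 0.18 without Uhrf1-/- replicate 2, 0.17 without wild-type replicate 3 and 0.05 without pair 2. Although Psmb9 shares its upstream region with Tap1, the ratio of Psmb9 to Tap1 ranged from 3.46 to 9.50 in Uhrf1-/- and from 6.21 to 14.2 in wild-type LSK cells.

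Psmb10 (Entrez gene 19171; chromosome 8, 105935728 to 105938392), which replaces Psmb7, had 363, 381 and 289 FPKM in the Uhrf1-/- and 364, 147 and 247 FPKM in the wild-type LSK replicates. Wild-type replicate 1 was level with the Uhrf1-/- libraries. The log2 fold change was 0.53 (SE 0.39, limma adjusted p = 0.942) and 0.19 without wild-type replicate 2.

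The constitutive subunits moved with the libraries as well. Psmb5 had 1096, 1158 and 808 FPKM in the Uhrf1-/- and 1207, 517 and 676 FPKM in the wild-type LSK replicates, and Psmb6 and Psmb7 were likewise lowest among the wild-type libraries in replicate 2. Their log2 fold changes were 0.43, 0.30 and 0.13 for Psmb5, Psmb6 and Psmb7 (limma adjusted p from 0.942 to 0.971). The immunoproteasome subunits were therefore set against their constitutive counterparts within each library, which removes differences in scaling between libraries.

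As a share of the summed FPKM of all 6 catalytic subunits, Psmb8, Psmb9 and Psmb10 made up 35.4%, 36.5% and 34.8% in the Uhrf1-/- replicates, 31.0%, 30.6% and 32.5% in the wild-type LSK replicates and 19.9% in LK cells. The genotypes did not overlap. The log2 ratio of the summed immunoproteasome to the summed constitutive subunits averaged -0.86 ± 0.05 in Uhrf1-/- and -1.13 ± 0.07 in wild-type LSK cells (SD, n = 3 each). The difference was 0.27 (two-sided exact permutation p = 0.1, the smallest that 3 against 3 libraries can give). It was between 0.24 and 0.31 when any 1 library was left out.

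Taken by exchange pair, the genotypes separated for Psmb8 and Psmb10. Psmb8 was 37.0%, 38.3% and 37.3% of Psmb8 plus Psmb5 in the Uhrf1-/- and 30.2%, 32.5% and 36.35% in the wild-type LSK replicates, without overlap. Psmb10 was 52.9%, 51.7% and 57.9% of Psmb10 plus Psmb7 in the Uhrf1-/- and 50.7%, 41.6% and 49.7% in the wild-type LSK replicates, also without overlap. Psmb9 was 22.7%, 23.5% and 14.1% of Psmb9 plus Psmb6 in the Uhrf1-/- and 20.3%, 21.2% and 14.7% in the wild-type LSK replicates, which overlapped. Of the 50-base words of Psmb5, 57.1% also occur in transcripts of other genes, so its level is uncertain, while Psmb8, Psmb9 and Psmb10 shared 0%.

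**Figure D3:**
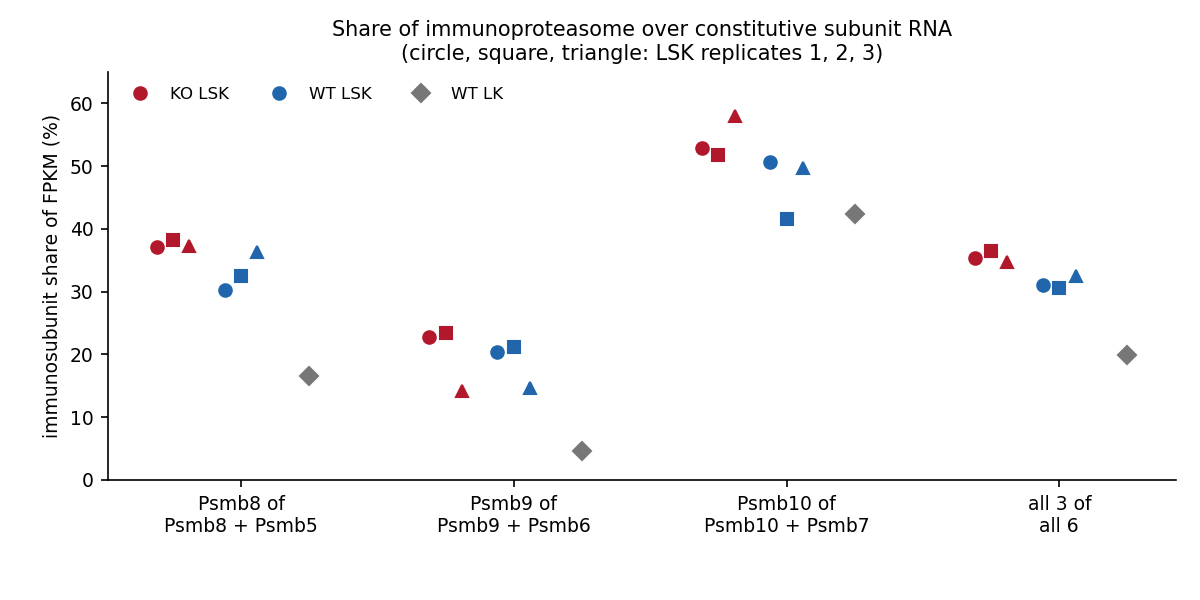
Share of the immunoproteasome subunit in each exchange pair, and of all 3 in all 6 catalytic subunits, in percent of FPKM per library, for Uhrf1-/- (KO) LSK, wild-type (WT) LSK and wild-type LK cells. The share of all 3 lies at 34.8% to 36.5% in Uhrf1-/- LSK, at 30.6% to 32.5% in wild-type LSK and at 19.9% in LK cells.

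Nlrc5 (Entrez gene 434341; chromosome 8, 94434335 to 94527272), the transactivator of class I genes, was the lowest of the 10 and stayed under the minimum mean of 1 FPKM set for testing. It had 0.929, 0.843 and 0.306 FPKM in the Uhrf1-/- and 0.224, 0.117 and 0.329 FPKM in the wild-type LSK replicates, and was listed at 0 in LK cells. These values rest on about 115, 104 and 41 reads in the Uhrf1-/- and 26, 20 and 63 reads in the wild-type LSK replicates. Pairs 1 and 2 differed by 4.15 and 7.22 times, and pair 3 was nearly level at 0.928 times. Fitted with limma and no filter on low values, its log2 fold change was 0.45, with an unadjusted p of 0.040 and an adjusted p of 0.824.

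Of the 10 genes, 9 reached the minimum, and limma called 0 of them at an adjusted p under 0.05, with or without the block. Over all 10608 genes tested, 0.113% were called higher and 0.0566% lower, and with the block 1.23% and 0.83%. H2-K1, H2-D1 and Tap1 were the 3 with an unadjusted p under 0.05, where 2.77% of all genes tested were higher at that level. The same 3 were those above every wild-type library, which held for 4.61% of all genes, while 6.16% lay below every wild-type library. The fold change was positive for 8 of the 9 (46.1% of all genes), with a median log2 fold change of 0.53 against -0.03 over all genes. Within pairs 1, 2 and 3, 8, 7 and 6 of the 9 were higher in the Uhrf1-/- library, with medians of 0.54, 0.95 and 0.25. In bulk RNA, fewer cells of a type and less RNA per cell cannot be told apart.

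**Figure D4:**
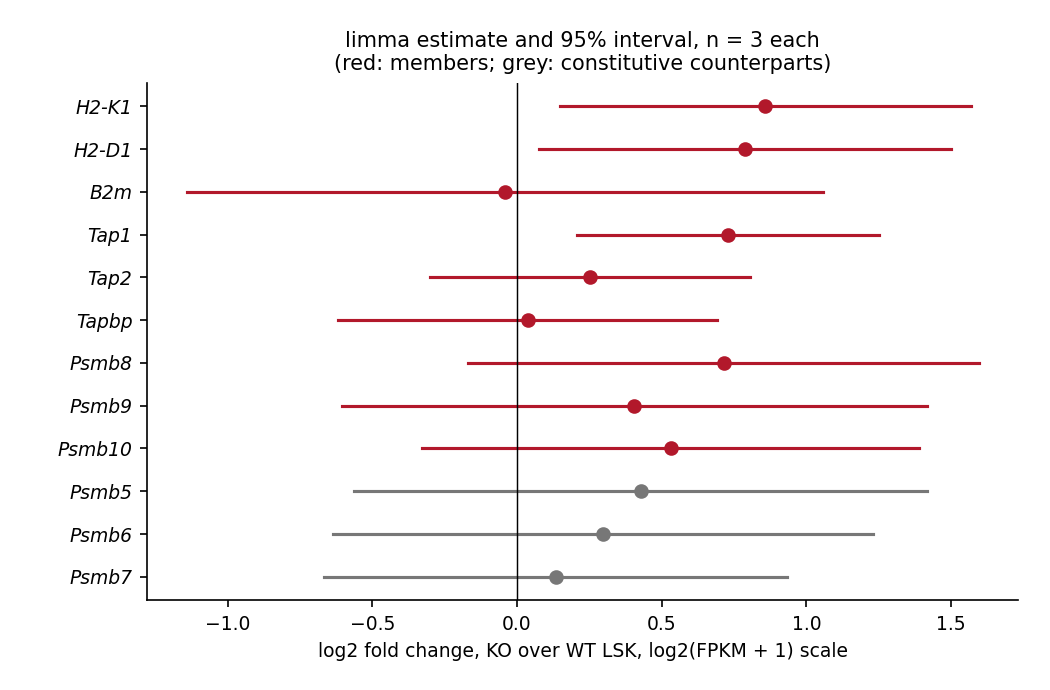
Log2 fold change of Uhrf1-/- over wild-type LSK cells on the log2(FPKM + 1) scale with the 95% limma interval, for the 9 tested genes (red) and the constitutive subunits Psmb5, Psmb6 and Psmb7 (grey), n = 3 each. The intervals of H2-K1, H2-D1 and Tap1 lie above 0, without correction for the number of genes, and those of the others include 0.

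By mean level per length, the order in Uhrf1-/- LSK cells was Psmb8 (614 FPKM), B2m (584), H2-D1 (360.2), Psmb10 (344), H2-K1 (304), Psmb9 (209.6), Tapbp (43.4), Tap2 (31.1), Tap1 (29.4) and Nlrc5 (0.692). In wild-type LSK cells it was B2m (527 FPKM), Psmb8 (386), Psmb10 (252), H2-D1 (206), H2-K1 (164), Psmb9 (155), Tapbp (43.3), Tap2 (26.1), Tap1 (17.4) and Nlrc5 (0.223). Neighbours from the top down to Psmb9 overlapped in their values in both genotypes, with 1 exception: every wild-type value of H2-D1 was above every one of H2-K1. Psmb9 lay above Tapbp, and Tapbp above Tap2, without overlap in either genotype. Tap1 lay below every value of Tap2 in wild-type cells and overlapped it in Uhrf1-/- cells.

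Nearly all of these genes were lower in LK than in LSK cells, a comparison that rests on 1 LK library and has no test. The LK library lay below all 3 wild-type LSK libraries for 8 of the 9 genes, against 31.1% of all genes tested. It lay below all 6 LSK libraries for 7 of the 9, against 25.7% of all genes tested. It was lower by at least 2-fold for 4 of the 9 (13.1% of all genes) and higher by as much for 0 (8.17% of all genes), with a median difference of -0.79 on the log2(FPKM + 1) scale against 0.05 over all genes. On the deposited count values 5 of the 9 were lower by at least 2-fold, since B2m stood at -1.23 there and at -0.79 on FPKM. Psmb9 stood at 29.1 FPKM in LK cells, or 18.8% of the wild-type LSK mean. Psmb8 stood at 117 FPKM (30.2%), Tap1 at 5.31 FPKM (30.6%) and H2-K1 at 64.7 FPKM (39.3%).

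The remaining LK levels were closer to wild-type LSK cells. B2m stood at 303 FPKM, H2-D1 at 133 FPKM, Tap2 at 15.5 FPKM and Tapbp at 24.7 FPKM in LK cells, between 57.1% and 64.4% of the wild-type LSK mean. Psmb10, at 229 FPKM in LK cells (90.7%), lay within the wild-type LSK range, as did Psmb5, Psmb6 and Psmb7. In LK cells Psmb8 was 16.6% of Psmb8 plus Psmb5, Psmb9 4.56% of Psmb9 plus Psmb6, and Psmb10 42.3% of Psmb10 plus Psmb7.

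Among other class I genes, fold changes of both signs were found in Uhrf1-/- LSK cells. Of 27 listed, 17 were tested, and limma called 0 with or without the block; 4 had an unadjusted p under 0.05 (5.57% of all genes tested), and 9 with the block (12% of all genes tested). Their median log2 fold change was 0.25. H2-T23, which encodes the nonclassical Qa-1 that presents leader peptides of class I molecules, had 177, 172 and 249 FPKM in the Uhrf1-/- and 121, 60.5 and 114 FPKM in the wild-type LSK replicates. Its groups did not overlap, and replicate 3 was the highest Uhrf1-/- value, unlike for H2-K1 and H2-D1. The log2 fold change was 1.05 (SE 0.35, limma adjusted p = 0.532, blocked adjusted p = 0.080). H2-Q7, a Qa-2 gene with near-identical relatives, had 2.61, 1.53 and 1.16 FPKM in Uhrf1-/- and 0.382, 0.417 and 0.691 FPKM in wild-type LSK libraries (log2 fold change 0.86, limma adjusted p = 0.422).

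H2-T9 and H2-K2 were also above every wild-type library, with log2 fold changes of 0.75 and 0.58 (limma adjusted p = 0.808 and 0.940). Of the 17 tested, 4 were above every wild-type library and 1 was below, against 4.61% and 6.16% of all genes tested. Cd1d1, which presents lipids and does not use Tap1 or Tap2, was below every wild-type library with 8.28, 10.3 and 9.18 FPKM in Uhrf1-/- against 11.3, 18.6 and 12.96 FPKM in wild-type LSK cells (log2 fold change -0.55, limma adjusted p = 0.942). The lowest fold change of the list was that of H2-L, at -1.42 (SE 1.76).

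Most peptide loading and folding genes of the endoplasmic reticulum had fold changes below 0. Of 12 tested, 3 were positive, against 46.1% of all genes tested, and limma called 0 with or without the block. At an unadjusted p under 0.05 there were 0, and 1 with the block, against 5.57% and 12% of all genes tested. Their median log2 fold change was -0.13. Erap1, the aminopeptidase that trims peptides for class I, had 6.15, 6.41 and 5.42 FPKM in the Uhrf1-/- and 7.51, 15.5 and 8.53 FPKM in the wild-type LSK replicates. It was below every wild-type library, as were 6.16% of all genes tested (log2 fold change -0.66, SE 0.30, limma adjusted p = 0.913, blocked adjusted p = 0.265). Calr, a chaperone of the loading complex, had the highest fold change of the list, at 0.14.

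Of the 11 other subunits of the 20S proteasome core, limma called 0, with 0 at an unadjusted p under 0.05. Over all genes tested, 0.113% were called higher and 0.0566% lower, and 5.57% had an unadjusted p under 0.05. Their log2 fold changes ran from -0.30 for Psma1 to 0.64 for Psmb4, with a median of 0.15. Psmb4 stood at 635, 687 and 511 FPKM in the Uhrf1-/- and at 757, 274 and 281 FPKM in the wild-type LSK replicates, and its groups overlapped. Of the 9 activator and assembly genes, limma likewise called 0, with 0 at an unadjusted p under 0.05, against the same shares of all genes. Psme1 and Psme2 encode the PA28 activator, which interferon-gamma raises. Psme1 had 1082, 1083 and 741 FPKM in the Uhrf1-/- and 1047, 438 and 605 FPKM in the wild-type LSK replicates (log2 fold change 0.55, limma adjusted p = 0.942). Psme2 had a log2 fold change of 0.28, and 59.3% of its 50-base words also occur in other genes. Pomp, Psmg1, Psmg2, Psmg3, Psme3, Psme4 and Psmf1 lay between -0.15 and 0.18.

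**Figure D5:**
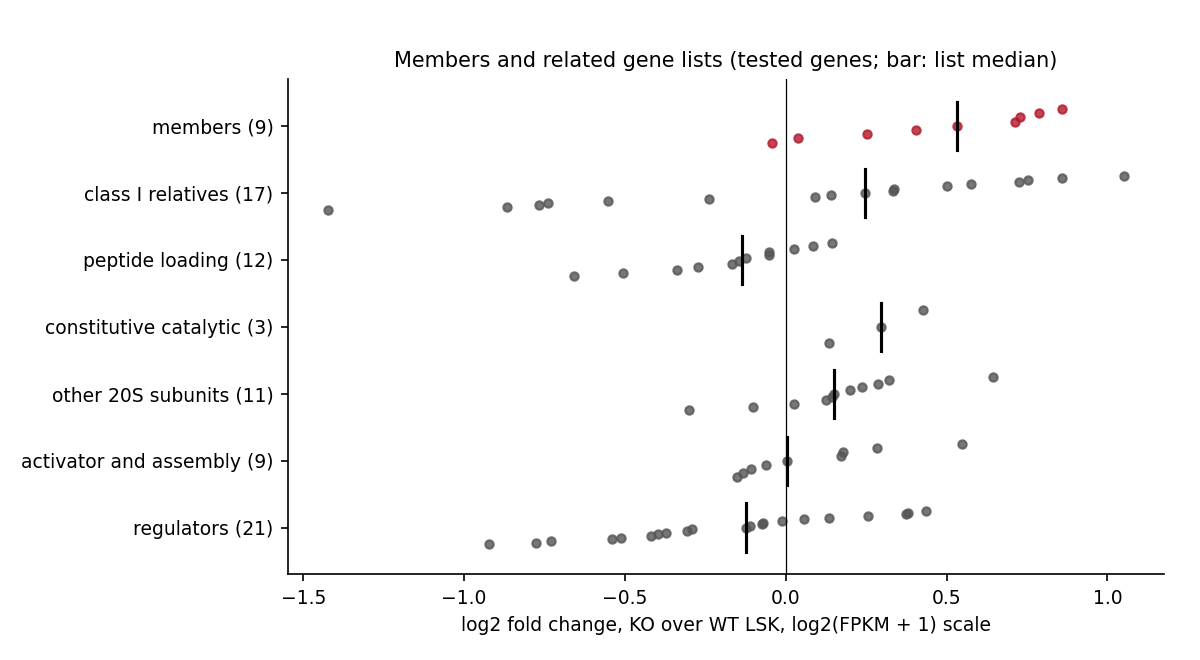
Log2 fold changes of Uhrf1-/- over wild-type LSK cells on the log2(FPKM + 1) scale for the tested genes of each list, with the number tested and a bar at the list median. The medians are 0.53 for the class I and immunoproteasome genes and between -0.13 and 0.30 for the other lists.

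Among the regulators of class I transcription, 6 of the 21 tested had a positive fold change, against 46.1% of all genes tested. Of 22 listed, 1 was not tested, and limma called 0 with or without the block; 2 had an unadjusted p under 0.05, and 5 with the block, against 5.57% and 12% of all genes tested. The median log2 fold change was -0.12. Irf1, an interferon-induced activator of class I genes, had 23.6, 28.3 and 26.1 FPKM in the Uhrf1-/- and 24.5, 41.1 and 33.5 FPKM in the wild-type LSK replicates (log2 fold change -0.31, limma adjusted p = 0.942). Irf9 had a log2 fold change of 0.38 and Stat2 of 0.13.

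None of the factors that bind the X and Y boxes passed in the limma fit (0 of 8, with 0 at an unadjusted p under 0.05, against 5.57% of all genes tested). Rfx5, Rfxap and Rfxank, which form the RFX complex, had log2 fold changes of -0.29, 0.37 and -0.07. Those of the NF-Y subunits Nfya, Nfyb and Nfyc were 0.26, -0.37 and -0.40, and those of Creb1 and Atf1 were -0.01 and -0.07. The NF-kappaB genes Nfkb1 and Rela had log2 fold changes of 0.06 and -0.11. Ciita, the class II transactivator, was under the minimum, at no more than 0.412 FPKM in any library.

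The interferon receptor genes had fold changes below 0 in Uhrf1-/- LSK cells, as did Irf2 and Irf8, and limma called none of them. Irf8 had 6.44, 8.85 and 11.3 FPKM in the Uhrf1-/- and 12.1, 13.7 and 22.4 FPKM in the wild-type LSK replicates, without overlap (log2 fold change -0.78, limma adjusted p = 0.779, blocked adjusted p = 0.126). Ifngr1, the ligand-binding chain of the interferon-gamma receptor, had 16.1, 16.9 and 14.5 FPKM in the Uhrf1-/- and 15.001, 59.4 and 32.5 FPKM in the wild-type LSK replicates, and its fold change of -0.92 was the lowest of the list. Ifngr2 and Ifnar1 were below every wild-type library, with log2 fold changes of -0.51 and -0.54. With Irf8, this held for 3 of the 21 regulators tested, against 6.16% of all genes tested. Ifnar2, Irf2 and Batf3 had log2 fold changes of -0.12, -0.42 and -0.73.

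Markers of other cells that carry class I molecules were read beside these values. The summed level of 10 macrophage markers was 51.6, 50.3 and 14.8 FPKM in Uhrf1-/- replicates 1, 2 and 3, 160.1, 89.1 and 15.4 FPKM in the wild-type LSK replicates and 8.63 FPKM in LK cells. The sums of pair 3 were nearly level, and Cd68 carried most of both. Cd68 had 15.4, 12.1 and 11.8 FPKM in the Uhrf1-/- and 8.98, 14.2 and 14.1 FPKM in the wild-type LSK replicates. Of the 4 macrophage markers tested, 1 had a positive fold change (46.1% of all genes tested), which was Cd68 (log2 fold change 0.09). The complement genes C1qa, C1qb and C1qc, which macrophages make, carried much of the sums of replicates 1 and 2: C1qb had 13.9, 16.1 and 1.71 FPKM in the Uhrf1-/- and 67.0, 31.4 and 0.922 FPKM in the wild-type LSK replicates. Of the 10 markers, none was at 0 in all 7 libraries. A sum of 7 genes of class II presentation and dendritic cells ran from 31.95 to 58.2 FPKM in Uhrf1-/-, from 47.5 to 84.9 FPKM in wild-type LSK and was 19.9 FPKM in LK cells. H2-DMa carried much of this sum. Of the 4 tested, 1 had a positive fold change. This was H2-Ab1, with 11.1, 12.9 and 12.8 FPKM in the Uhrf1-/- and 9.41, 5.77 and 4.77 FPKM in the wild-type LSK replicates (log2 fold change 0.84, limma adjusted p = 0.584). H2-DMb1 was below every wild-type library, as were 6.16% of all genes tested (log2 fold change -0.48, limma adjusted p = 0.942). Cd3e and Ncr1, markers of T cells and natural killer cells, were listed at 0 in all 7 libraries. Erythroblast markers (8 of 9 matched) summed to 228 to 282 FPKM in Uhrf1-/-, 80.9 to 373 FPKM in wild-type LSK and 1527 FPKM in LK cells. Of the 6 erythroblast markers tested, 3 had a positive fold change, against 46.1% of all genes tested. In Uhrf1-/- cells 2 were above every wild-type LSK library (4.61% of all genes). These were Klf1 (log2 fold change 1.55, limma adjusted p = 0.942) and Epor, the erythropoietin receptor gene. Epor passed only with the block (log2 fold change 1.59, limma adjusted p = 0.325, blocked adjusted p = 0.027). Hba-a1, Hba-a2 and Hbb-bs had log2 fold changes of -0.19, -0.36 and -1.22. Hepatoblast markers summed to 42.9 to 47.5 FPKM in Uhrf1-/- and 33.5 to 41.7 FPKM in wild-type LSK cells. Krt18 carried most of each sum. It had 39.4, 43.4 and 36.8 FPKM in the Uhrf1-/- and 33.7, 30.5 and 36.8 FPKM in the wild-type LSK replicates. The values of Alb, Afp and the remaining hepatoblast markers overlapped between the genotypes. Endothelial markers summed to 14.7 to 16.7 FPKM in Uhrf1-/- and 13.6 to 19.7 FPKM in wild-type LSK cells. The part of these cells in the class I values was not tested.

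Outside the lists, the 10 tested genes whose log2(FPKM + 1) followed the mean standardized level of the 10 class I genes most closely over the 7 libraries were Mx2, Lat, Thap4, AW112010, Lgals3bp, E130102H24Rik, Irf7, Phf11b, Abcb9 and Plgrkt. Their Pearson r lay between 0.963 and 0.996, given as a description: the values share the libraries and their scaling, and the LK library lies far from the rest. The standardized profile was 0.94, 0.95 and 0.01 in Uhrf1-/- replicates 1, 2 and 3, -0.01, -0.165 and -0.18 in the wild-type LSK replicates and -1.54 in LK cells. Mx2, an interferon-induced GTPase, had 1.95, 1.88 and 0.916 FPKM in the Uhrf1-/- and 0.832, 0.773 and 0.662 FPKM in the wild-type LSK replicates, and was listed at 0 in LK cells. Lgals3bp, a secreted glycoprotein gene, had 97.6, 94.1 and 53.0 FPKM in the Uhrf1-/- and 40.0, 46.4 and 44.1 FPKM in the wild-type LSK replicates and 6.54 FPKM in LK cells. Abcb9 encodes a lysosomal relative of Tap1 and Tap2 and had 3.24, 3.34 and 1.34 FPKM in the Uhrf1-/- and 1.62, 1.90 and 1.201 FPKM in the wild-type LSK replicates. These 10 genes were picked by a profile that is itself higher in the Uhrf1-/- than in the wild-type LSK libraries. Their genotype fits are therefore descriptions only and no separate test. In the limma fit without the block 0 passed, where Irf7 had an adjusted p of 0.053. With the block Irf7 passed (blocked limma adjusted p = 0.00057), where 1.23% of all genes tested were called higher.

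Among themselves the 10 genes were unevenly alike over the 6 LSK libraries. Of the 45 pairs, the closest were H2-K1 with H2-D1 (Pearson r = 0.992), Psmb8 with Psmb10 (0.968) and H2-K1 with Nlrc5 (0.921), and the least alike were Tapbp with Psmb10 (-0.546), with a median of 0.618. B2m, whose promoter stretch shares the spacing of the X2 and Y cores with the heavy chains, had an r of 0.368 with H2-K1 and 0.269 with H2-D1. These values are descriptions over libraries that share their scaling.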

How the data were processed

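RNA was measured in 7 libraries of sorted fetal liver cells, grouped by genotype and cell type from the sample titles. The deposited table gives, per the file headers, a count and an FPKM value per gene and library. The deposited count values are not whole and were treated as a scaled signal. Between 98.2% and 98.6% of low values lay within 0.02 steps of a whole multiple of each library's step, and the rest were fractional, so no count model was used. TopHat2 2.0.9, Cufflinks 2.1.1 and mm10 are named, without roles, per the submitters' processing notes. The sources used here name no annotation, strand setting or counting option; overlapping or near-identical genes may therefore share reads. Coordinates were taken from RefSeq (GRCm38) by gene ID.

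The genotype comparison used limma 3.58.1 (R 4.3.3), with trend and robust moderation, on log2(FPKM + 1) of the 6 LSK libraries. Genes averaging 1 FPKM or more were tested, two-sided, with Benjamini-Hochberg adjustment over all of them and a threshold of 0.05. This scale understates the change of low genes. Libraries with the same replicate number deviated together from their group means (correlations 0.349, 0.332 and 0.645, each above 0.1), and the numbers were read as pairs. The labels do not state what a number stands for, so the pairing rests on the data alone, and 2 other combinations also exceeded 0.1 (0.213 and 0.159). The labels do not say that replicates came from separate animals, so a p-value covers the spread of these libraries only, which may be technical. Replicates within a genotype differed by more than sampling noise, so none was counted as a copy. Uhrf1-/- replicates 1 and 2 were by far the most alike (Pearson r = 0.994). The median chi-square of their reads was 3.31, where sampling alone gives 0.455. For the other pairs of the same genotype it was 19.8 to 39.2. The 3 Uhrf1-/- libraries may thus not be evenly independent. The LK library was set against the mean of the wild-type LSK libraries, on FPKM and on the count values, with no test. The subunit ratio was compared with an exact permutation test. The limma step was tested on simulated data. Shared 50-base words were counted over GENCODE transcripts. Members and lists were chosen with earlier results of these data known. The genes named were all 10 members, the called, highest and lowest genes of each list, all constitutive, activator and regulator genes, and 10 genes of like pattern; 1 regulator and 1 LSK gene are not reported here. The motif letters were chosen after the sequences had been read. Alternatives were the block, count values, median-of-ratios scaling, other filters, pseudocount and moderation, and leaving out libraries or pairs.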

Additional observations from a re-analysis of the deposited data

How the results depend on the processing

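Limma called 0 of the class I and immunoproteasome genes in the fit reported and in all 19 alternatives, and the lowest adjusted p of any member was 0.111, for Tap1 with the replicate block and median-of-ratios scaling. Over all genes, 18 were called in the fit reported. With the replicate block 219 were called, with the block on the count values 203, and with the block and median-of-ratios scaling 204. Without trend and robust moderation 9 were called. With no filter 0 were called by limma (967 at an unadjusted p under 0.05), and 0 with no filter and the block, an alternative added after the data were seen (1398). Leaving out any 1 library gave 0 to 4 calls (0 without wild-type replicate 1, with 1504 at an unadjusted p under 0.05, and 0 without wild-type replicate 2, with 470), and leaving out pair 1, 2 or 3 in the blocked fit gave 667, 20 and 196. The block changed no member's call. H2-K1, H2-D1 and Tap1 kept a positive log2 fold change throughout (0.73 to 1.07, 0.67 to 0.94 and 0.61 to 0.78). B2m turned positive on the count values (0.061, also with the block), after median-of-ratios scaling (0.014, also with the block), without Uhrf1-/- replicate 3 (0.53), without wild-type replicate 2 (0.07) and without pair 3 (0.49), and leaving out 1 library gave -0.40 to 0.53. Tapbp turned negative on the count values (-0.055, also with the block), without Uhrf1-/- replicate 2 (-0.07), without wild-type replicate 1 (-0.17) and without pair 1 (-0.20), and leaving out 1 library gave -0.17 to 0.28. The cause was not tested. The subunit log2 ratio was 0.26 on the count values and 0.27 as the mean of 3 ratios, and over the pairs its exact p was 0.25, the smallest that 3 pairs can give. Depth limits Nlrc5 most, with 20 to 115 reads per LSK library.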

Other observations

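The loading and folding genes of the endoplasmic reticulum ran opposite to the class I genes in LK cells. Of 12 tested, 9 lay above all 3 wild-type LSK libraries in the LK library, against 32.5% of all genes tested, and 2 lay below. Canx, a lectin chaperone that binds new heavy chains, stood at 185 FPKM in LK cells against 45.3, 66.5 and 109 FPKM in the wild-type LSK replicates. Pdia3, the oxidoreductase of the loading complex, stood at 296 FPKM in LK cells against 88.1, 209 and 188 FPKM, and Calr at 578 FPKM against 213, 384 and 334 FPKM. Both PA28 genes were below all 3 wild-type LSK libraries in LK cells: Psme1 had 281 FPKM in LK cells against 1047, 438 and 605 FPKM in the wild-type LSK replicates, and Psme2 had 306 FPKM against 639, 368 and 449.8 FPKM. These values compare 1 LK library with 3 wild-type LSK libraries and have no test.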
